A study of Mus musculus with 6 samples.

Results

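The genes described here encode the core of the Ras to MEK relay: the Ras GTPases Hras and Nras, the Ras regulators Nf1 and Rasa1, the Raf kinases Araf and Braf, and the MEK kinases Map2k1 and Map2k2. They were set by name, with earlier results of these data known. Of the 8, 7 were measured among the 19938 genes of the array table. Hras had no probe set that the platform annotation assigns to it alone and is not analysed here. Each of the other 7 genes was covered by 1 probe set, so each value below rests on that probe set. The samples were wild type C57BL/6 mouse cells, labelled female, from brains at embryonic day 17.5. They had been grown as neural stem cells in low-attachment dishes with FGF and EGF, each at 20 ng/ml. The cells of 3 samples came from the subventricular zone around the lateral ventricle and those of 3 from the same zone around the third ventricle, and all 6 had the same strain, genotype, age and medium. The labels give no other difference between the groups, and how often the cells had been passaged is not given in the sources used here. The labels call the 3 samples of a region biological replicates and do not link their numbers to animals, so a p-value here reflects how much these cultures vary.

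Ras proteins switch between an inactive GDP-bound and an active GTP-bound form. Growth factor receptors, among them those for the EGF and FGF that these cultures receive, load Ras with GTP through exchange factors. Active Ras recruits Raf kinases to the membrane, Raf phosphorylates MEK, and MEK phosphorylates ERK. Neurofibromin, the product of Nf1, and RasGAP, the product of Rasa1, end the signal by speeding GTP hydrolysis on Ras. Loss of neurofibromin in neural progenitors is known to raise Ras signalling and glial production, which makes the level of Nf1 in different germinal zones a question of interest. An array measures transcripts only, and neither GTP loading nor phosphorylation was measured.

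The RefSeq promoters of 4 of these genes are shown because Nf1 leads the set and because Nras, Braf and Map2k1 are the genes whose values did not overlap between the regions. Each sequence holds the 250 bases before the start site, 5′ to 3′ on the gene's strand in GRCm38.p6. They are chr11:79339642-79339891 on the plus strand for Nf1, chr3:103058035-103058284 on the plus strand for Nras, chr6:39725464-39725713 on the minus strand for Braf and chr9:64253606-64253855 on the minus strand for Map2k1. Capitals mark 3 motifs on either strand: the CREB/ATF element TGACGTCA, the ETS site CCGGAAG and the GC box GGGCGG. Only these exact letters were searched, so shorter or variant ETS sites are not marked.
Nf1: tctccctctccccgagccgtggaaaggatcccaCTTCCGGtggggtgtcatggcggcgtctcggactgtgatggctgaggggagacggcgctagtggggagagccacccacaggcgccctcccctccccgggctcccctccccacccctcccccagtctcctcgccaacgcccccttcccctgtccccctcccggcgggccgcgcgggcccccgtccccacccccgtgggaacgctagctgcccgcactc
Nras: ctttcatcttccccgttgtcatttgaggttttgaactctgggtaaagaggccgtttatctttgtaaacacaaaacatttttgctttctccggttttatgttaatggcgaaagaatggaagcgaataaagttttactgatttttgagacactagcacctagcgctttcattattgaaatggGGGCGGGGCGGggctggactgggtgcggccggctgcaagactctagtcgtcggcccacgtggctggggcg
Braf: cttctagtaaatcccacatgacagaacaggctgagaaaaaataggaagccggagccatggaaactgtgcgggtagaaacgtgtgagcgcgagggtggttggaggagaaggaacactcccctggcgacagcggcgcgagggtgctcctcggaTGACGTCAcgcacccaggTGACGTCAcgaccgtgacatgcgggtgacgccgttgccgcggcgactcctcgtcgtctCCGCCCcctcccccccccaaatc
Map2k1: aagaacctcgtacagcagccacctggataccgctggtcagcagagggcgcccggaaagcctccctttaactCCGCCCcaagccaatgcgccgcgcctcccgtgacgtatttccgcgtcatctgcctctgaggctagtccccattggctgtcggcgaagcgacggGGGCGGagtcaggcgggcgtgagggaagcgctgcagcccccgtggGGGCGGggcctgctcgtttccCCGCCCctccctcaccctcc

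The promoters differ in what they hold. Braf has 2 full CREB/ATF elements, which begin 99 and 81 bases before the start site, and 1.55% of 32851 mouse promoter windows of the same length hold at least 1. Nf1 has 1 ETS site of these exact letters and no GC box. Rasa1, the other GTPase activating gene, also has 1 such ETS site, a motif found in 6.91% of windows. Map2k1 has 4 GC boxes, Nras has 2 that begin 70 and 65 bases before the start site, and 32.7% of windows hold at least 1. The promoter of Nras has a GC content of 48.4% and that of Nf1 74.0%, around a median of 52.4% over all windows. All 8 genes had a promoter in the table, 6 of them with a GC box and 3 with a CCAAT box (CCAAT on either strand, in 33.8% of windows). These matches describe letters and not binding, and no motif was tested against the expression values.

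The values are log2 expression from RMA, which background-corrects the probes, equalizes the arrays' distributions and merges the probes into 1 value, so a difference of 1 is a 2-fold difference. The array medians ranged from 5.43 to 5.47. Lateral replicate 2 stood apart from its group, correlating with the third ventricle arrays at 0.991 across genes and with lateral replicates 1 and 3 at 0.980 and 0.982, where genes are not independent replicates. As a gauge of background, the 95th percentile of 1027 olfactory receptor genes, which these cells are not known to use, lay at 5.03 to 5.16. All 7 genes lay above it in 6 of 6 arrays, by at least 1.10 for Map2k2 and at least 3.82 for Nf1. The array medians over all probe sets also lay above this gauge, so clearing it does not by itself identify a cell type. Among the stem cell markers, 12 of 13 lay above the gauge in all arrays and Prom1 in 5 of 6. Of the microglial and blood markers 0 of 5 and of the vascular markers 0 of 6 lay above it in all arrays. Other lists were partly present, with 6 of 7 astrocyte markers (Gfap in no array), 6 of 7 oligodendrocyte lineage and 4 of 7 neuronal markers above it in all arrays. Choroid plexus markers did so in 1 of 4, meningeal fibroblast markers in 2 of 5, ependymal markers in 4 of 4 and of the 3 Schwann cell markers the 1 that was measured, Egr2, which other cells also use. Over all these lists 1 marker passed, Pdgfra of the oligodendrocyte lineage, which was lower in the third ventricle cultures by a log2 difference of -1.79 (limma adjusted p = 0.00707). The summed linear signal of that list ranged from 1229 to 1357 in the lateral and from 984 to 1024 in the third ventricle arrays. That sum includes Pdgfra and does not show a fall of the whole list. Of the 7 measured markers 5 were lower and 2 higher in the third ventricle cultures, with a median difference of -0.12. The part of this list in the results below was not tested. In bulk RNA a smaller share of cells of a type and less RNA per cell cannot be told apart.

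The comparison asked whether the third ventricle cultures express these Ras pathway genes at other levels than the lateral ventricle cultures. An adjusted p below 0.05 in limma was reached by 0 of the 7, beside 0.231% of all genes. At an unadjusted p below 0.05 there was 1, Map2k1, beside 12.6% of all genes. Leaving out lateral replicates 1, 2 and 3 in turn also gave 0 of the 7, beside 0.125%, 8.25% and 0.100% of all genes. Leaving out replicates 1, 2 and 3 of the third ventricle gave 0 of the 7, beside 0.0351%, 0.0201% and 0.0201%. Values of the groups did not overlap for 3 of the 7, Nras and Map2k1 with the third ventricle higher and Braf with it lower, beside 17.0% of all genes. The median difference, the third minus the lateral ventricle, was -0.07 over the 7 genes and -0.02 over all genes. The 95% intervals of 6 of the 7, all but Map2k1, lay within a 1.5-fold difference in either direction, as did those of 82.2% of all genes.

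**Figure D1:**
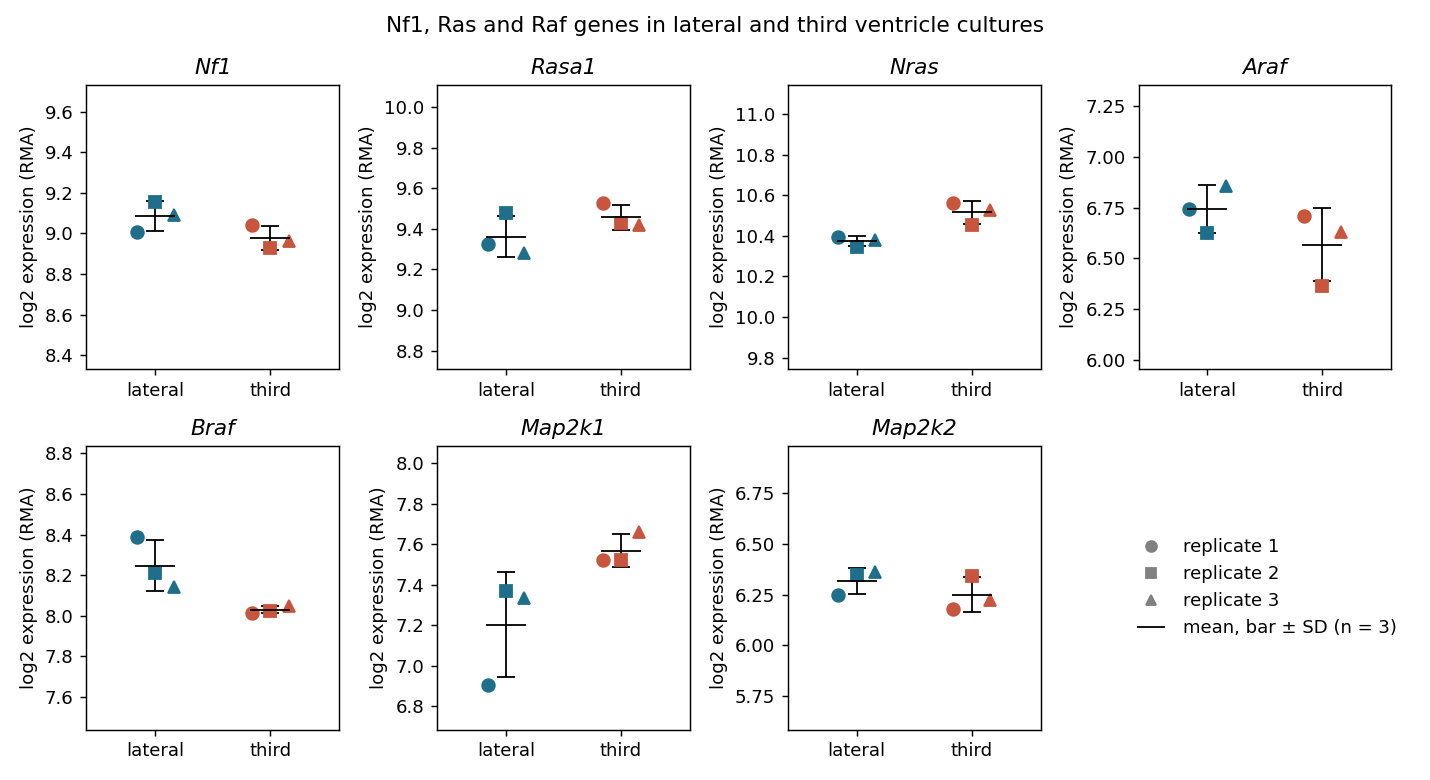
Log2 expression (RMA) of the 7 measured genes in each array, by region; symbols mark the replicate number, lines the mean and bars the SD over 3 arrays, and every panel spans the same log2 range. Points of the regions separate for Nras, Braf and Map2k1 and mix for Nf1, Rasa1, Araf and Map2k2, and lateral replicate 1 of Map2k1 lies lowest, at 6.91.

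Nf1, the neurofibromin gene, lay at 9.01, 9.16 and 9.09 in lateral replicates 1 to 3 and at 9.04, 8.93 and 8.96 in replicates 1 to 3 of the third ventricle. The third ventricle arrays were the lower on average, but replicate 1 of that region lay above lateral replicate 1, so the groups overlapped. The means were 9.09 ± 0.07 and 8.98 ± 0.06 (SD, n = 3), a difference of -0.11 (SE 0.09, limma adjusted p = 0.681). On the linear scale the third ventricle level was 0.928 of the lateral level, with a 95% interval of 0.803 to 1.07. A fall in Nf1 transcript below 0.803 of the lateral level is therefore outside the interval these arrays give.

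Rasa1 encodes p120 RasGAP, which binds activated receptors through SH2 domains. Its values were 9.33, 9.48 and 9.28 in the lateral and 9.53, 9.43 and 9.42 in the third ventricle arrays. Lateral replicate 2 lay among the third ventricle arrays, and the other lateral arrays lay below them. The difference was 0.10 (95% interval -0.12 to 0.32, limma adjusted p = 0.733), opposite in sign to that of Nf1. Within each array, Nf1 minus Rasa1 was -0.32, -0.32 and -0.19 in the lateral and -0.49, -0.50 and -0.45 in the third ventricle cultures. That log2 ratio of the 2 GTPase activating genes was lower in all 3 arrays of the third ventricle than in any lateral array, with means of -0.48 ± 0.02 and -0.28 ± 0.08 (SD, n = 3). The ratio was formed after the values were seen and carries no test, and no share of separating ratios over other gene pairs was computed.

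Nras, a Ras isoform that acts at the plasma membrane and the Golgi, was the least variable of the set among lateral arrays. It lay at 10.39, 10.35 and 10.38 there and at 10.56, 10.45 and 10.53 in the third ventricle arrays. All values of the third ventricle were above all lateral ones, by a gap of 0.06 between the nearest. The means were 10.37 ± 0.02 and 10.52 ± 0.06 (SD, n = 3). The difference of 0.14 (SE 0.09) corresponds to 1.10-fold, with an interval of 0.962 to 1.27, and did not pass (limma adjusted p = 0.539).

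Araf and Braf are Raf kinases, of which Braf has the higher basal activity toward MEK. Braf lay at 8.39, 8.21 and 8.14 in the lateral and at 8.01, 8.03 and 8.05 in the third ventricle arrays. Every value of the third ventricle was below every lateral value, the nearest being 0.10 apart, and the third ventricle arrays spread by an SD of 0.02 against 0.13 in the lateral arrays. The difference was -0.22 (SE 0.10), a level of 0.860 of the lateral one with an interval of 0.736 to 1.00, and it did not pass (limma adjusted p = 0.407). Lateral replicate 1 was the highest array, and without it the difference was -0.15 (SE 0.10, adjusted p = 0.664).

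Araf lay at 6.75, 6.62 and 6.86 in the lateral and at 6.71, 6.36 and 6.63 in the third ventricle arrays. The groups overlapped, and replicate 2 of the third ventricle lay lowest. The difference of -0.18 (95% interval -0.45 to 0.10, limma adjusted p = 0.597) had the same sign as that of Braf. It was -0.07 without replicate 2 of the third ventricle and -0.25 without replicate 1 of that region. The log2 ratio of Araf to Braf overlapped between the regions, with means for the lateral and the third ventricle of -1.50 ± 0.19 and -1.46 ± 0.18 (SD, n = 3).

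Map2k1 encodes MEK1 and had the largest difference of the 7. Its values were 6.91, 7.37 and 7.34 in the lateral and 7.52, 7.52 and 7.66 in the third ventricle arrays. All values of the third ventricle lay above all lateral ones, with 0.15 between the nearest, and lateral replicate 1 minus the next lowest array was -0.43. The means were 7.20 ± 0.26 and 7.57 ± 0.08 (SD, n = 3), a difference of 0.36 (SE 0.14). That is 1.29-fold, with an interval of 1.03 to 1.60, and it did not pass over all genes (limma adjusted p = 0.353). Without lateral replicate 1 the difference was 0.22 (adjusted p = 0.582), and without lateral replicate 2 it was 0.45 (adjusted p = 0.102).

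Map2k2, the gene of MEK2, lay at 6.25, 6.35 and 6.36 in the lateral and at 6.18, 6.34 and 6.22 in the third ventricle arrays. The groups overlapped, and the difference of -0.07 (95% interval -0.28 to 0.15, limma adjusted p = 0.808) was the smallest of the set. Map2k1 minus Map2k2 within each array was 0.66, 1.02 and 0.98 in the lateral and 1.34, 1.18 and 1.44 in the third ventricle cultures. This log2 ratio of transcript signals did not overlap between the regions, with means of 0.89 ± 0.19 and 1.32 ± 0.13 (SD, n = 3). Map2k1 alone did not overlap either. The ratio too was formed after the values were seen and is given with no test and no share over other gene pairs.

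**Figure D2:**
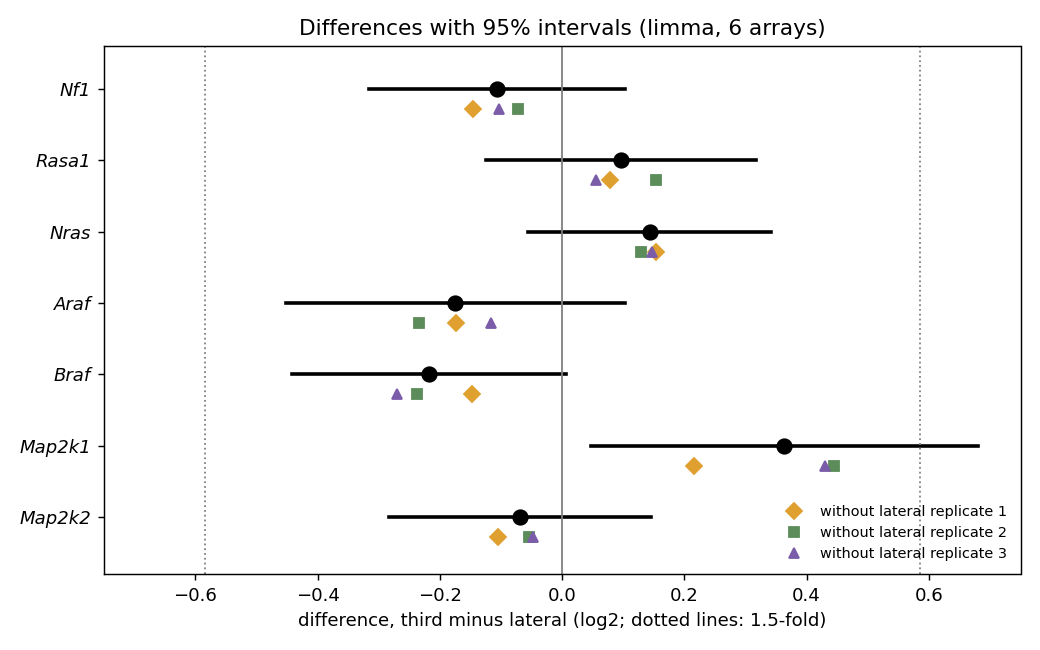
Difference in log2 expression, the third minus the lateral ventricle, for the 7 genes (black points) with limma's 95% intervals over 6 arrays; coloured symbols give the difference without 1 lateral array, and dotted lines mark 1.5-fold. Map2k1 has the only interval that leaves out 0 (0.05 to 0.68) and the only one that crosses a dotted line, and its difference is 0.22 without lateral replicate 1.

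The genes whose profile over the 6 arrays lay nearest to that of Nf1 were Sdk1, Mir677 and Lrrfip2, with root mean square differences of 0.022, 0.028 and 0.028 between centred log2 values, out of 10036 genes searched. For Braf they were Dram2, Prok2 and Hook3, at 0.026, 0.034 and 0.037 out of 6485. Like Nf1 and Braf, none of the 6 passed (limma adjusted p between 0.356 and 0.741). Sdk1, at 5.17 to 5.39, and Prok2, at 5.28 to 5.66, lay near the background gauge. These are the closest of many profiles over only 6 arrays, and shared regulation was not tested.

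The wider pathway was described from 7 lists ordered by role, which hold 86 genes, 77 of them measured. The other genes of the lists are not analysed here. None of the 77 passed over all genes in limma (lowest adjusted p = 0.124, for Rasa2), 13 had an unadjusted p below 0.05, beside 12.6% of all genes, and 41 had a positive and 36 a negative difference, with a median of 0.01. The measured members of the kinase list are the 4 kinases described above, with 1 positive difference and a median of -0.12. The groups did not overlap for 13 with the third ventricle higher and for 5 with it lower, beside 7.77% and 9.24% of all genes. Without lateral replicate 2, 2 of the 77 passed as higher and 5 as lower, beside 4.37% and 3.88% of all genes, and 0 of the 7 genes described above were among them. In that fit all 14 measured cell cycle genes passed as higher in the third ventricle cultures, beside which the part of proliferation in the pathway values was not tested. That fit sets lateral replicates 1 and 3 alone against the third ventricle, so lateral replicate 2 need not share a difference it calls.

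**Figure D3:**
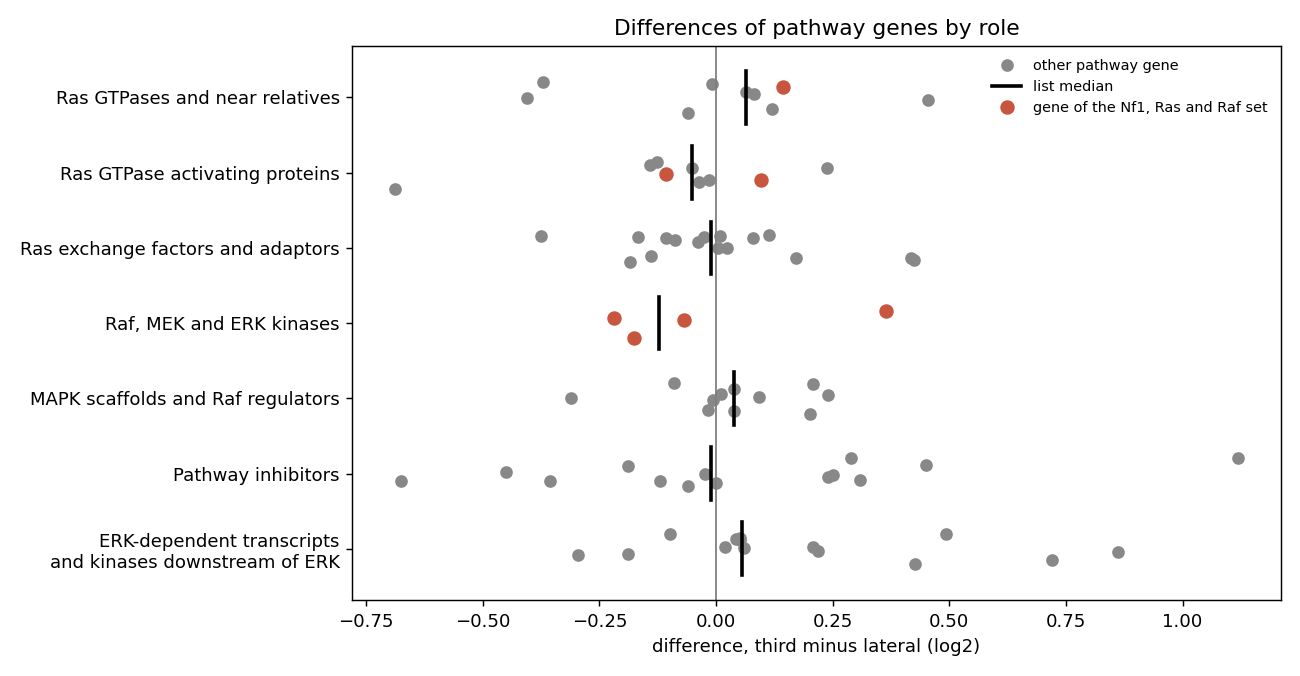
Difference in log2 expression, the third minus the lateral ventricle, for the 77 measured pathway genes by role; red points are the 7 genes described here, grey points the other genes and black lines the list medians (points are spread vertically only to separate them). List medians lie between -0.12 and 0.07, the highest point is Dusp6 at 1.12 and the lowest Rasa2 at -0.69.

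Among the Ras GTPases and their relatives, 0 of 9 passed and 5 had positive differences, with a median of 0.07 that became -0.02 without lateral replicate 2 and 0.15 without lateral replicate 3. Rap1a, a relative that also binds Raf kinases, lay at 10.18, 10.51 and 10.12 in the lateral and 10.77, 10.85 and 10.55 in the third ventricle arrays. Its groups did not overlap and it differed by 0.46 (SE 0.13, limma adjusted p = 0.287), and by 0.57 (adjusted p = 0.0208) without lateral replicate 2. Its close paralog Rap1b differed by 0.08 (adjusted p = 0.786).

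Of the GTPase activating genes, 0 of 9 passed and 2 had positive differences, with a median of -0.05 that became 0.01 without lateral replicate 2. Rasa2, a GAP1 family member that inactivates Ras, lay at 7.97, 7.71 and 7.67 in the lateral and at 7.06, 7.31 and 6.92 in the third ventricle arrays. The groups were 0.35 apart, and the difference was -0.69 (SE 0.13), 0.620 of the lateral level with an interval of 0.501 to 0.769. It did not pass over all genes (limma adjusted p = 0.124) and did without lateral replicate 2 (-0.72, adjusted p = 0.0214). In each fit that left out 1 array the difference of Rasa2 lay between -0.80 and -0.59.

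Exchange factors and adaptors had 0 of 16 passing and a median of -0.01. Gab1, a docking protein, differed by -0.18 and Ptpn11, the SHP2 phosphatase that promotes Ras activation, by 0.11. Rasgrf1, Rasgrf2, Rasgrp1, Rasgrp3, Shc1 and Shc2 lay above the background gauge in no array, so their values cannot be told from background. Scaffolds and Raf regulators had 0 of 11 passing and a median of 0.04. Their brightest members, the 14-3-3 gene Ywhae and the phosphatase subunit Ppp1cb, differed by 0.21 and -0.01. Lamtor3, which anchors MEK1 at late endosomes, differed by -0.31 (adjusted p = 0.443) and passed without lateral replicate 2 (-0.49, adjusted p = 0.0213). Lateral replicate 2 was at 9.51 for Lamtor3, level with the third ventricle arrays at 9.49 to 9.64, so that call came from lateral replicates 1 and 3.

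Inhibitors of the pathway had 0 of 14 passing, 7 differences in each direction and a median of -0.01, which was 0.18 without lateral replicate 3 and -0.12 without lateral replicate 1. Spred1, whose product brings neurofibromin to the membrane, differed by 0.31 (limma adjusted p = 0.435) and Spred2 by 0.25 (adjusted p = 0.759). Lateral replicate 1 was the lowest array for both, at -0.47 and -0.87 relative to the next lowest. Without that array the differences were 0.15 for Spred1 and -0.11 for Spred2. Another probe set of Spred2 differed by 0.07 over all arrays. Without lateral replicate 2, 3 of the 14 passed as lower. They were the Sprouty family gene Spry3 (-0.91, adjusted p = 0.00352), the Ras ubiquitin ligase adaptor Lztr1 (-0.59, adjusted p = 0.00740) and Rasip1 (-0.49, adjusted p = 0.0303), which encodes a Ras-interacting protein of vessels and not a general inhibitor. Lateral replicate 2 lay at 6.32 for Lztr1, below the third ventricle arrays at 6.41 to 6.48. For Spry3 the 3 values in the third ventricle cultures were under the background gauge, as was lateral replicate 2 at 5.06. Rasip1 lay near the gauge in those cultures, at 5.08, 5.23 and 5.23 against 5.07, 5.11 and 5.12. Over all arrays Spry3 differed by -0.68 (adjusted p = 0.291), Lztr1 by -0.35 (adjusted p = 0.478) and Rasip1 by -0.45 (adjusted p = 0.184).

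ERK-dependent transcripts and kinases downstream of ERK had 0 of 14 passing, 11 positive differences and a median of 0.06, which was 0.20 without lateral replicate 2 and 0.03 without lateral replicate 1. Etv5, an ETS factor induced by FGF through ERK, lay at 8.13, 9.54 and 9.43 in the lateral and at 9.66, 9.78 and 9.82 in the third ventricle arrays. Its groups did not overlap, but lateral replicate 1 stood apart, at -1.31 relative to the next lowest array. The difference was 0.72 (SE 0.33, limma adjusted p = 0.416), and 0.27 (adjusted p = 0.541) without that array. Another probe set of Etv5 differed by 0.56. Etv1 differed by 0.06, and by 0.23 in another probe set. Elk3, an ETS factor of the ternary complex family, differed by 0.43 (adjusted p = 0.335) and passed without lateral replicate 2 (0.55, adjusted p = 0.0389). Its lowest array was lateral replicate 1, at 6.90, and without that array the difference was 0.27 (adjusted p = 0.546).

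Low values in lateral replicate 1 were also seen for Dusp6, of the inhibitor list, and Ccnd1, which were singled out after their values were seen. Dusp6, an ERK phosphatase that ERK signalling induces, lay at 5.67 in lateral replicate 1, at 7.33 and 7.37 in lateral replicates 2 and 3 and at 7.76, 7.96 and 8.0 in the third ventricle arrays. Lateral replicate 1 minus the next lowest array was -1.65, while the other lateral arrays lay below the third ventricle arrays by a smaller step. The difference was 1.12 (SE 0.41, limma adjusted p = 0.347), and 0.56 (SE 0.11, adjusted p = 0.197) without that array. Ccnd1, the cyclin D1 gene, lay at 7.28, 9.09 and 8.81 in the lateral and at 9.06, 9.37 and 9.33 in the third ventricle arrays, so it overlapped only through lateral replicate 2. It differed by 0.86 (adjusted p = 0.429), and by 0.30 (adjusted p = 0.577) without lateral replicate 1. Of the immediate early genes, Egr1 was lowest in lateral replicate 1, at -0.72 relative to the next lowest array, with 7.25 and 7.55 in lateral replicates 2 and 3. Fos, near the background gauge, lay at 5.38 in that array and at 5.19 and 5.44 in lateral replicates 2 and 3. In the third ventricle arrays Fos lay at 4.82, 5.09 and 5.22. Its difference was negative, at -0.30 (limma adjusted p = 0.394), and that of Egr1 was 0.22 (adjusted p = 0.759).

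**Figure D4:**
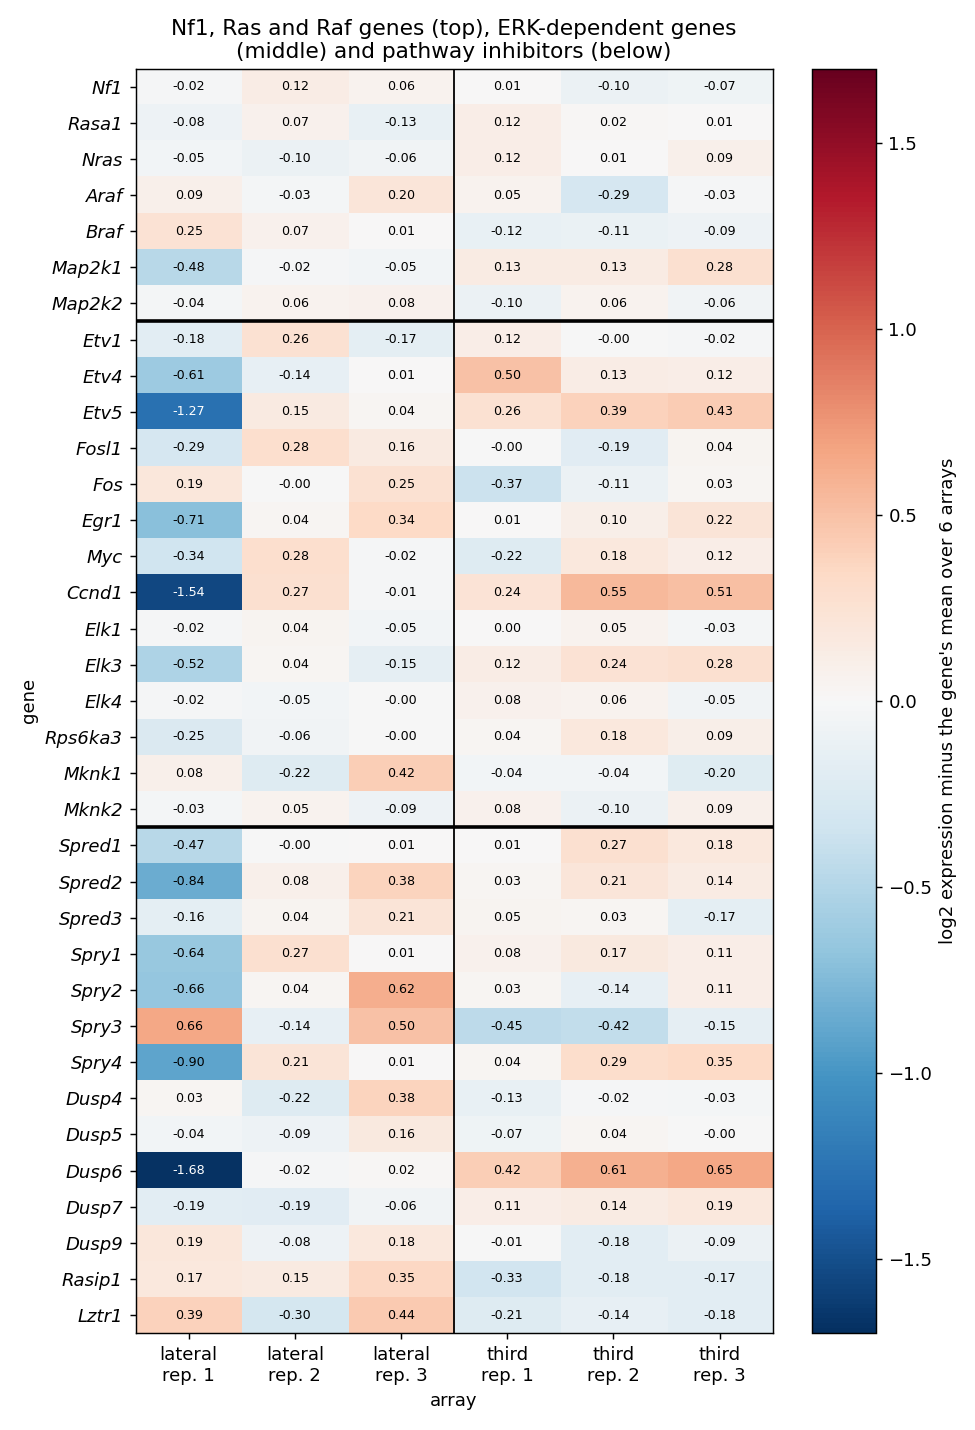
Log2 expression of the 7 genes, the 14 ERK-dependent genes and the 14 inhibitors in each array, with each gene's mean over the 6 arrays taken off; red is above and blue below that mean. Lateral replicate 1 is lowest for Dusp6 (-1.68), Ccnd1 (-1.54), Etv5 (-1.27) and Map2k1 (-0.48), and highest for Braf (0.25).

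Lateral replicate 1 held the lowest value of 9 of the 14 ERK-dependent genes and 6 of the 14 inhibitors, beside 23.3% of all genes. Of the 7 Nf1, Ras and Raf genes it was lowest for 1, Map2k1. The list median relative to each gene's mean was -0.27 in that array for the ERK-dependent genes, against 0.04 and -0.0034 in lateral replicates 2 and 3, and lay between 0.06 and 0.09 in the other region. Cell cycle genes moved with the arrays as well: all 14 measured were lowest in lateral replicate 1, with list medians of -1.38, 0.56 and -0.84 in lateral replicates 1 to 3, against 0.52 to 0.63 in the other region. Their summed linear signal ranged from 3364 to 10640 in the lateral and from 10381 to 10710 in the third ventricle arrays. Of these, 13 of 14 lay above the background gauge in all arrays. The summed signal of the 7 astrocyte markers ranged from 1401 to 4223 in the lateral, highest in replicate 1, and from 2292 to 2819 in the third ventricle arrays. The part of proliferation and of cell type makeup in the Map2k1, Etv5, Dusp6 and Ccnd1 values was not tested.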

How the data were processed

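Total RNA of 6 cultures was amplified with the NuGEN WT-Ovation Pico kit and hybridized to Affymetrix arrays, per the labels' protocols. The authors deposited log2 values by probe set, and the submitters' processing notes name RMA and Affymetrix Expression Console 1.1. A genome build and other settings are not stated there, and the labels name no batch. RMA compresses differences of dim genes.

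Of 35556 probe sets, 21789 carried exactly 1 gene symbol in the platform annotation, and a gene was represented by the one with the highest mean over all arrays, which gave 19938 genes. Symbols of 19919 genes matched the RefSeq table of GRCm38.p6, from which promoters were taken. Arrays of the third and the lateral ventricle, grouped by title, were compared with limma 3.58.1 in R 4.3.3 (lmFit, eBayes, 6 arrays, no covariate), with Benjamini-Hochberg adjustment over all genes at 0.05. With 3 arrays a group the smallest two-sided p of an exact permutation test is 0.1, so tests use the model across genes, and the number of arrays limits precision. Tested on simulated data of 19938 genes, 16.4% of genes changed 1.5-fold and 83.6% of those changed 2-fold were recovered. These rates hold for the simulated noise and need not hold for these arrays. The 14 measured cell cycle genes had a median difference of 1.10, and 0 of them passed over all arrays. Dusp6 differed by 1.12 and did not pass (limma adjusted p = 0.347), while Pdgfra, at -1.79, passed. Across all genes the median SD was 0.150 for lateral arrays and 0.105 for the other region.

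The genes and lists were chosen with earlier results of these data known. All 8 genes are named. From each pathway list the text names the members that passed, or the 2 with the highest mean, and up to 4 that passed without lateral replicate 2. For Nf1 and Braf the 3 nearest profiles are named, among genes above the 40th percentile of mean level with at least that gene's SD, without predicted genes. Dusp6, Ccnd1, Egr1, Fos and the 6 exchange factor and adaptor genes at background lie outside this rule, as do Prom1, Gfap and Egr2 in the marker check. Alternatives changed normalization, the prior, the array weights, the choice of probe set, the genes tested (without the dimmest 40%), the replicate number and each array left out.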

Additional observations from a re-analysis of the deposited data

How the results depend on the processing

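None of the 7 Nf1, Ras and Raf genes passed in any of the 14 alternatives, and each kept its sign in all of them, 98 values in all, with a lowest adjusted p of 0.102 (limma, Map2k1 without lateral replicate 2). Over those alternatives the difference ranged from -0.15 to -0.07 for Nf1, 0.10 to 0.17 for Nras, -0.25 to -0.07 for Araf, -0.27 to -0.15 for Braf, 0.06 to 0.15 for Rasa1, 0.22 to 0.45 for Map2k1 and -0.12 to -0.03 for Map2k2. Changing the choice among probe sets (1 for each gene), the genes tested, the prior or the replicate block left each difference unchanged. The signs kept there were fixed in advance. The count over all genes was 46. It was 158 with array weights and ranged from 4 to 1644 when 1 array was left out (25, 1644 and 20 without lateral replicates 1, 2 and 3, and 7, 4 and 4 without replicates 1, 2 and 3 of the third ventricle). The count of passing pathway genes ranged from 0 to 7 in those fits and was 7 only without lateral replicate 2. Of 91 list medians, 9 moved by more than the spread between arrays. The labels do not link the replicate numbers to animals, and the numbers were not taken as pairs. Same-numbered arrays correlated in their deviations at 0.24, 0.11 and 0.07. No such value was computed for differently numbered arrays, so these do not settle whether the numbers are pairs. With the replicate number as a block, 57 genes passed, 0 of them among the 7 genes or the pathway lists. The causes of these shifts were not tested. With 3 arrays a region, a difference smaller than the reach of the intervals given above cannot be resolved.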
